A study of Mus musculus with 4 samples.

Results

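Aminoacyl-tRNA synthetases attach each amino acid to its tRNA and so supply the ribosome with charged tRNAs. Animal cells use a cytosolic set and a mitochondrial set, both encoded in the nucleus. Several cytosolic synthetases sit together in a multi-synthetase complex held by scaffold proteins, and many cytosolic synthetase genes are targets of ATF4, the transcription factor of the integrated stress response that is induced when amino acids run short. The 37 genes described here were taken by symbol, with no measured value in the rule, out of 39179 genes listed in the count files, and comprise 21 cytosolic members (19 synthetase genes and the scaffold genes *Aimp1* and *Aimp2*) and 16 mitochondrial members, whose symbols end in 2. *Gars1* and *Kars1* are known to encode both the cytosolic and the mitochondrial form of their enzyme, and are counted as cytosolic.

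RNA-seq was done on 4 libraries of B16F1, a mouse melanoma cell line. Parental B16F1 control cells (replicates 1 and 3) belong to a line that is usually grown on rigid dishes, and TRCs (tumor repopulating cells) are cells of the same line that grew from single cells into spheroids in soft 3D fibrin gels of 90 Pa and were isolated on day 5 (replicates 1 and 3). Selection by the gel, growth in 3D and the softness of the gel come together in the TRCs and cannot be told apart, and nothing in the labels says whether libraries of a group came from separate cultures, so the p-values measure only the spread between these libraries.

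Between 35948295 and 43511554 reads per library were counted on genes, so 3 counts correspond to at most 0.0850 CPM (counts scaled to a common library total after TMM normalization). Every member passed the low-count filter, and the lowest single count was 902 among the cytosolic and 145 among the mitochondrial members. Alignments that were not unique were not counted and took 15.2% and 17.1% of alignments in the parental and 18.3% and 25.2% in the TRC libraries. The 7 melanocyte markers were all present, with a summed level of 15712 CPM or more in every library. The 4 keratinocyte markers were at 0, the endothelial markers summed to at most 0.198 CPM, the fibroblast markers to between 3.12 and 11.4 CPM and the leukocyte markers to between 1.66 and 4.93 CPM, with *Ptprc* at 0.

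On a scale that allows genes to be compared (CPM per kilobase of the principal transcript), the cytosolic members were expressed at higher levels than the mitochondrial ones. In parental cells the cytosolic members ranged from 32.2 for *Aimp2* to 312 for *Gars1*, with a median of 67.1 CPM per kilobase. The mitochondrial members ranged from 1.68 for *Mars2* to 39.0 for *Iars2*, with a median of 7.15 CPM per kilobase. The median over all genes tested was 11.6 CPM per kilobase, so 1 set lay mostly above it and the other mostly below.

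The leading members of each set were mostly not separated beyond their spread. *Gars1* (glycyl), *Nars1* (asparaginyl), *Eprs1* (glutamyl and prolyl in 1 protein), *Sars1* (seryl) and *Aars1* (alanyl) led the cytosolic set in parental cells, at 312 ± 111, 194 ± 75.7, 158 ± 52.2, 149 ± 80.8 and 125 ± 44.3 CPM per kilobase (SD, n = 2). *Gars1* exceeded *Nars1* by slightly more than the SD of either, and from *Nars1* to *Aars1* neighbours differed by less than their SD. In the mitochondrial set *Iars2* (isoleucyl) stood apart at 39.0 ± 5.07 CPM per kilobase (SD, n = 2), followed by *Yars2* (tyrosyl) at 23.1 ± 7.31 and *Tars2* (threonyl) at 19.7 ± 4.15, which differed from each other by less than their SD. Of the exon bases of *Iars2*, 22.9% are overlapped on the opposite strand by *Rab3gap2*, and the strand setting of the counting is not given in the sources used here. The low value of *Mars2* rests on an annotated transcript of 11294 bases, the longest of the 37.

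**Figure D1:**
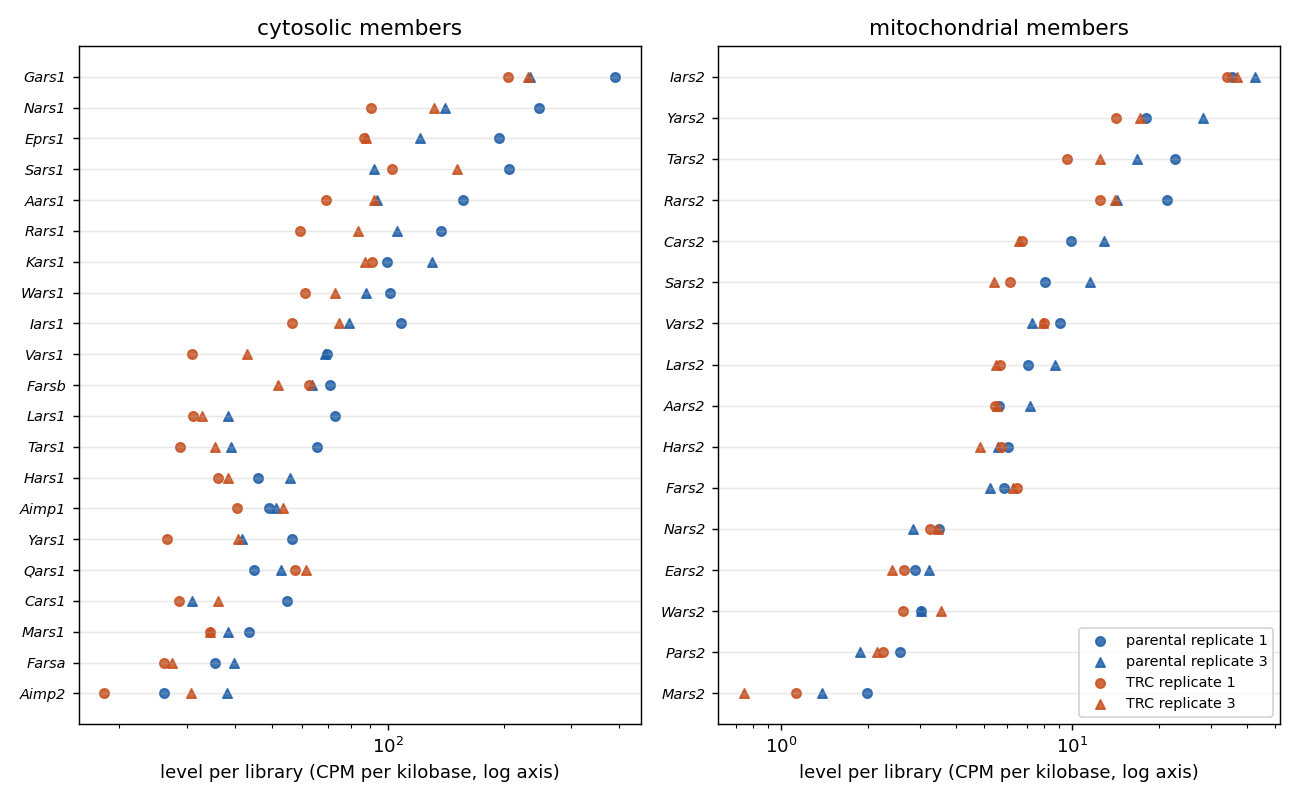
Level of each member in each of the 4 libraries, in CPM per kilobase of transcript on a log axis, with the cytosolic members on the left and the mitochondrial members on the right. Blue symbols are parental and orange symbols TRC libraries, circles replicate 1 and triangles replicate 3; in many cytosolic genes the parental circle (replicate 1) lies to the right of the other 3 symbols.

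Most cytosolic synthetase genes had lower mean levels in TRCs. Of the 21 cytosolic members, 20 had a log2 fold change (TRC over parental) below 0, where 49.7% of all genes tested had, and their median was −0.50, beside 0.0034 for all genes tested. At an FDR under 0.05 in edgeR's exact test, 5 of 21 were downregulated (*Vars1*, *Eprs1*, *Nars1*, *Lars1* and *Rars1*), which is 23.8%, where 7.05% of the 11483 genes tested were downregulated. None was upregulated, where 8.81% of all genes were, and none was higher at an unadjusted p under 0.05 or was called higher by the quasi-likelihood test or DESeq2. At an unadjusted p under 0.05, 12 of the 21 were lower, where 13.2% of all genes were. In 16 of the 21 both TRC libraries lay below both parental libraries, a pattern seen in 30.4% of all genes tested.

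Of the 16 mitochondrial members, 13 had a log2 fold change below 0, where 49.7% of all genes tested had, and the median was −0.25. *Tars2* was downregulated, which is 6.25% of the set and close to the 7.05% of all genes, and at an unadjusted p under 0.05, 4 of the 16 were lower, where 13.2% of all genes were. None was upregulated, with 0 higher at an unadjusted p under 0.05 and 0 called higher by the quasi-likelihood test or DESeq2. In 9 of the 16 both TRC libraries lay below both parental libraries, where 30.4% of all genes tested did. In *Fars2* alone both lay above, as in 30.2% of all genes tested. Summed over the set, the mitochondrial level was 163 and 173 CPM per kilobase in the parental libraries and 126 and 135 in the TRC libraries, without overlap between the groups. The summed cytosolic level was 2277 and 1644 CPM per kilobase in the parental libraries and 1244 and 1499 in the TRC libraries, again without overlap but with a wider spread within each group. The TRC mean was 69.9% of the parental mean for the cytosolic and 77.9% for the mitochondrial set, and the difference between the sets was not tested. Its order rests on parental replicate 1: against parental replicate 3 alone, the TRC mean was 83.4% for the cytosolic and 75.7% for the mitochondrial set. Without parental replicate 1 the median log2 fold change was −0.28 for the cytosolic and −0.31 for the mitochondrial members.

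**Figure D2:**
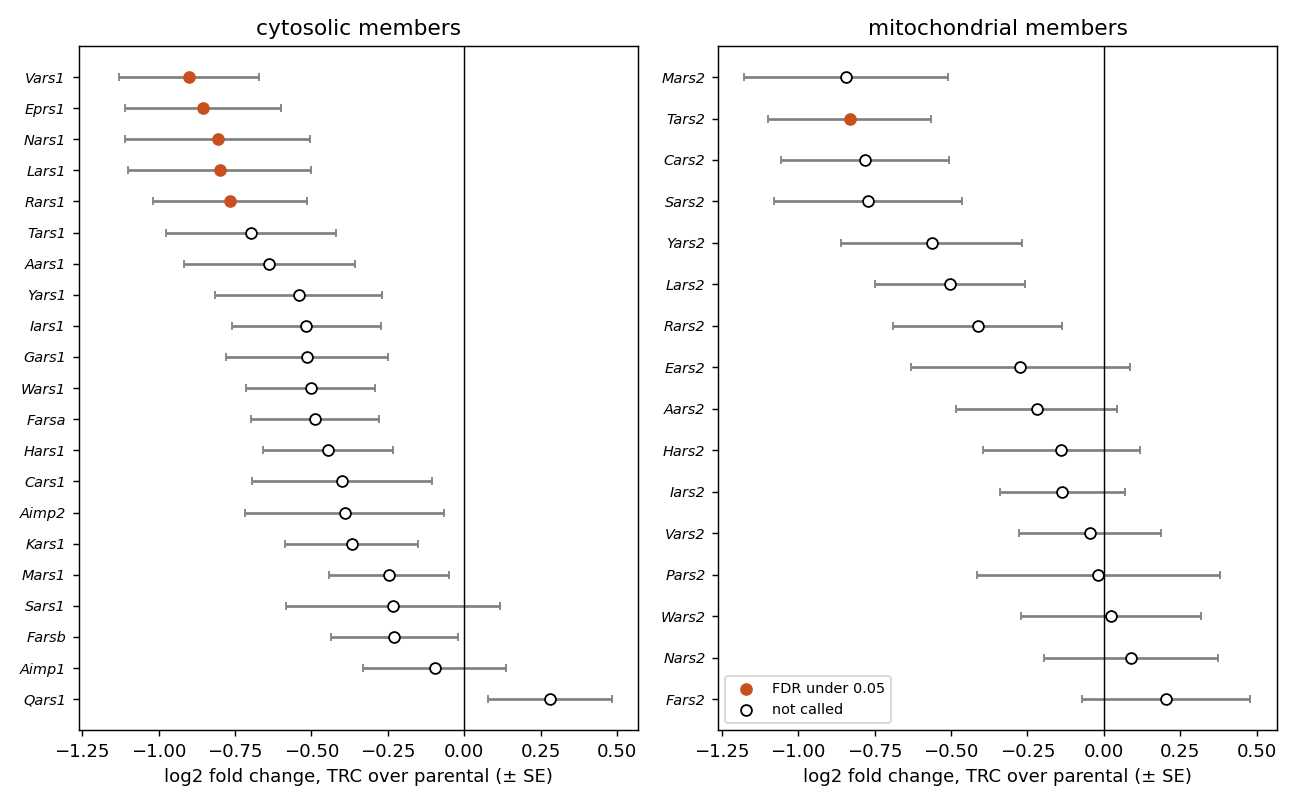
Log2 fold change of TRC over parental cells for each member, with bars of ± 1 SE from DESeq2, cytosolic members on the left and mitochondrial members on the right. Filled orange points mark the 6 members with an FDR under 0.05 in the exact test, all to the left of 0, and open points the 31 that were not called.

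*Vars1*, the valyl-tRNA synthetase gene (ENSMUSG00000007029, GRCm38 chromosome 17 from 35000987 to 35016322, plus strand), had the largest decrease. Its level was 287 and 284 CPM in parental replicates 1 and 3 and 128 and 178 CPM in TRC replicates 1 and 3. The parental libraries were nearly equal and both TRC libraries lay well below them, so the mean of *Vars1* fell from 285 ± 2.51 to 153 ± 35.2 CPM (SD, n = 2). Its log2 fold change was −0.90 (SE 0.23, FDR = 0.0033). It kept an FDR under 0.05 in 11 of the 12 alternative fits, the exception being the fit without TRC replicate 1 (FDR = 0.172).

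*Eprs1* encodes the bifunctional glutamyl-prolyl enzyme of the multi-synthetase complex (chromosome 1 from 185363044 to 185428360, plus strand). It had 955 and 594 CPM in the parental and 425 and 431 CPM in the TRC libraries, a log2 fold change of −0.86 (SE 0.26, FDR = 0.0132). Here the TRC libraries were close to each other and the parental ones were not, and the mean in TRCs was 55.3% of the parental mean. *Rars1*, the arginyl enzyme of the same complex (chromosome 11 from 35808381 to 35834506, minus strand), had 291 and 223 CPM in the parental and 125 and 177 CPM in the TRC libraries, a log2 fold change of −0.77 (SE 0.25, FDR = 0.0244). *Lars1*, the leucyl enzyme of the complex and also known as a leucine sensor for mTORC1 (chromosome 18 from 42202298 to 42262194, minus strand), had 291 and 153 CPM in the parental and 124 and 131 CPM in the TRC libraries, a log2 fold change of −0.80 (SE 0.30, FDR = 0.0414). For *Lars1* most of the difference came from parental replicate 1: without that library its log2 fold change was −0.26. *Nars1*, the asparaginyl enzyme (chromosome 18 from 64499647 to 64516652, minus strand), had 680 and 386 CPM in the parental and 247 and 362 CPM in the TRC libraries, a log2 fold change of −0.81 (SE 0.30, FDR = 0.0486). Parental replicate 3 and TRC replicate 3 were close to each other, and without parental replicate 1 the log2 fold change of *Nars1* was −0.34.

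*Tars2* (ENSMUSG00000028107, chromosome 3 from 95739976 to 95760206, minus strand) encodes the mitochondrial threonyl enzyme. It had 54.3 and 40.2 CPM in the parental and 23.0 and 30.1 CPM in the TRC libraries, a log2 fold change of −0.83 (SE 0.27, FDR = 0.0171). Both TRC libraries lay below both parental ones. Its cytosolic partner *Tars1* had a similar log2 fold change of −0.70 (SE 0.28), with 262 and 157 CPM in the parental and 116 and 143 CPM in the TRC libraries, but was not called (FDR = 0.0645).

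The 6 calls depended on single libraries and on the test. Without parental replicate 1 the log2 fold changes of the 5 cytosolic genes among the 6 lay between −0.89 (*Vars1*) and −0.26 (*Lars1*). In that fit the mitochondrial median was −0.31, beside −0.25 with all libraries. Without parental replicate 3 the log2 fold changes of the 5 cytosolic genes among the 6 lay between −1.19 and −0.91. Without TRC replicate 3 they lay between −1.16 and −0.85. Without TRC replicate 1, none of the 37 was called, while 269 of all genes were called lower. A fit that leaves a group with 1 library takes the spread of that library from the other group. The quasi-likelihood test called *Vars1* alone, 1 of the 21 cytosolic and 0 of the 16 mitochondrial members. That cytosolic share was close to the share of all genes called lower in that test, 487 of 11483.

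The members that were not called were not shown to be unchanged, since their SE on the log2 scale was between 0.20 and 0.40. Among the cytosolic members outside the complex, *Yars1* (tyrosyl), *Wars1* (tryptophanyl), *Farsa* (the alpha subunit of the phenylalanyl enzyme) and *Hars1* (histidyl) had log2 fold changes between −0.54 and −0.45, and each had both TRC libraries below both parental ones. *Farsb*, which encodes the beta subunit that pairs with *Farsa*, had a log2 fold change of −0.23 (SE 0.21), with 144 and 129 CPM in the parental and 127 and 106 CPM in the TRC libraries. *Gars1*, the most abundant member, had 929 and 557 CPM in the parental and 490 and 551 CPM in the TRC libraries. Only parental replicate 1 stood away from the other 3 libraries of *Gars1* (log2 fold change −0.52, SE 0.27, FDR = 0.198). In *Aars1* both replicates 1 stood away from both replicates 3, with 900 and 539 CPM in the parental and 397 and 528 CPM in the TRC libraries (log2 fold change −0.64, FDR = 0.109). In the mouse annotation used, 1326 bases of the exons of *Aars1* overlap *Exosc6* on the same strand.

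In the groups of *Sars1* and *Cars1* (cysteinyl) the libraries overlapped. *Sars1* had 737 and 330 CPM in the parental and 367 and 541 CPM in the TRC libraries, the widest spread between parental libraries of any member (log2 fold change −0.23, SE 0.35, FDR = 0.714). Without parental replicate 1 the sign of both genes turned, to 0.46 for *Sars1* and 0.067 for *Cars1*.

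The multi-synthetase complex was not uniform. Of its 9 genes in the set, 3 were downregulated (*Eprs1*, *Rars1* and *Lars1*), against 7.05% of all genes tested. Both TRC libraries lay below both parental ones in 6 of the 9, against 30.4% of all genes, and the median log2 fold change was −0.39. *Iars1* (isoleucyl), *Kars1* (lysyl) and *Mars1* (methionyl) had log2 fold changes of −0.52, −0.37 and −0.25. Neither scaffold gene was called. *Aimp1* had 55.2 and 57.8 CPM in the parental and 45.6 and 60.0 CPM in the TRC libraries (log2 fold change −0.097, SE 0.23). *Aimp2* had 31.0 and 45.3 CPM in the parental and 21.7 and 36.5 CPM in the TRC libraries (log2 fold change −0.39, SE 0.33), and in both scaffolds the groups overlapped. Of the exon bases of *Aimp2*, 29.4% are overlapped on the opposite strand by *Eif2ak1*. *Qars1*, the glutaminyl enzyme, was the exception in direction, with 126 and 148 CPM in the parental and 161 and 171 CPM in the TRC libraries. Both TRC libraries lay above both parental ones, but the difference was not called (log2 fold change 0.28, SE 0.20, FDR = 0.448). By catalytic fold, 4 of 10 class I and 2 of 10 class II cytosolic genes were downregulated, again against 7.05% of all genes, with medians of −0.53 and −0.50; *Eprs1* holds a domain of each and counts in both.

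Enzymes for the same amino acid had similar log2 fold changes in both compartments in some pairs and not in others, and no difference within a pair was tested. Among 15 pairs of a cytosolic and a mitochondrial gene, the mitochondrial log2 fold change was the higher in 10, with a median difference (mitochondrial minus cytosolic) of 0.36. Without parental replicate 1 it was the higher in 8 of 15, with a median difference of 0.015, and without parental replicate 3 in 13 of 15, with a median difference of 0.53. The ratio of the cytosolic to the mitochondrial level lay lower in both TRC libraries than in both parental ones in 6 pairs and higher in 1, and the groups overlapped in the other 8. *Fars2* is counted with both *Farsa* and *Farsb*, and both pairs are among the 10 and among the 6. In levels of single genes, 30.4% of all genes tested were split downward in this way and 30.2% upward. No such share was computed for ratios. The asparaginyl pair differed most: *Nars2* had 13.2 and 10.8 CPM in the parental and 12.3 and 13.1 CPM in the TRC libraries, a log2 fold change of 0.089 (SE 0.29) beside −0.81 for *Nars1*. Per kilobase, *Nars1* exceeded *Nars2* by 71.1 and 49.4 times in the parental and by 27.6 and 38.0 times in the TRC libraries. The valyl pair came next, with *Vars2* at 40.4 and 32.4 CPM in the parental and 35.4 and 35.1 CPM in the TRC libraries, a log2 fold change of −0.045 (SE 0.23) beside −0.90 for *Vars1*. The ratio of *Vars1* to *Vars2* per kilobase was 7.60 and 9.37 in the parental and 3.86 and 5.41 in the TRC libraries. In both pairs the TRC ratios lay below the parental ones.

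*Aars2* and *Yars2* had log2 fold changes of −0.22 (SE 0.26) and −0.56 (SE 0.30), each with both TRC libraries below both parental ones, beside −0.64 for *Aars1* and −0.54 for *Yars1*. The methionyl, seryl and cysteinyl pairs went the other way, with differences (mitochondrial minus cytosolic) of −0.60, −0.54 and −0.38. So did the threonyl and tyrosyl pairs, by less (−0.13 and −0.020). Among these pairs only the methionyl one had ratios that did not overlap between the groups. *Mars2* had 22.3 and 15.7 CPM in the parental and 12.8 and 8.41 CPM in the TRC libraries (log2 fold change −0.84, SE 0.34, FDR = 0.0992), beside −0.25 for *Mars1*. *Sars2* had 15.1 and 21.7 CPM in the parental and 11.4 and 10.1 CPM in the TRC libraries (log2 fold change −0.77, SE 0.31, FDR = 0.114). *Cars2*, known also to make cysteine persulfides, had 19.0 and 24.6 CPM in the parental and 12.9 and 12.5 CPM in the TRC libraries (log2 fold change −0.78, SE 0.28, FDR = 0.0769). In these 3 mitochondrial genes both TRC libraries lay below both parental ones, and DESeq2's Wald test called *Cars2* lower.

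The mitochondrial partners of *Lars1* and *Rars1* were not called. *Lars2* had 27.6 and 34.0 CPM in the parental and 22.0 and 21.4 CPM in the TRC libraries (log2 fold change −0.50, SE 0.25, FDR = 0.206). *Rars2* had 39.5 and 26.6 CPM in the parental and 23.4 and 26.4 CPM in the TRC libraries (log2 fold change −0.41, SE 0.28, FDR = 0.346), so that the replicates 3 of both groups were nearly equal. *Ears2*, the mitochondrial glutamyl enzyme, had 5.89 and 6.60 CPM in the parental and 5.41 and 4.93 CPM in the TRC libraries (log2 fold change −0.27, SE 0.36). The remaining mitochondrial genes *Iars2*, *Hars2*, *Pars2*, *Wars2*, *Nars2* and *Vars2* had overlapping groups and log2 fold changes between −0.14 and 0.089. *Fars2* had 12.5 and 11.1 CPM in the parental and 13.8 and 13.4 CPM in the TRC libraries, a log2 fold change of 0.20 (SE 0.27).

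**Figure D3:**
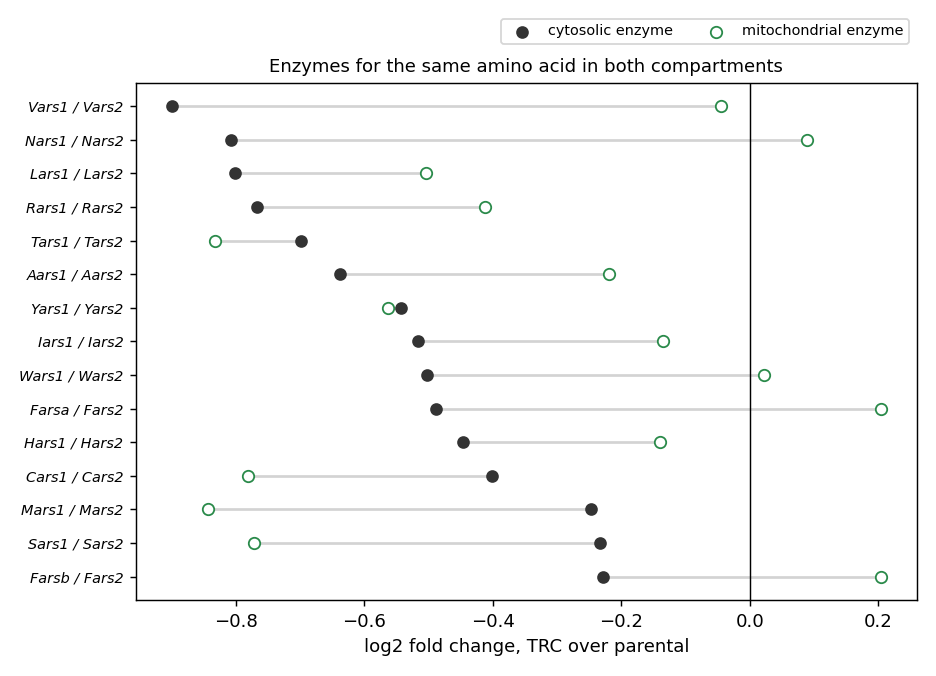
Log2 fold change of TRC over parental cells for 15 pairs of genes that charge the same amino acid in the cytosol (dark points) and in mitochondria (open green points), ordered by the cytosolic value. The line between them is longest for the asparaginyl pair; *Fars2* is drawn beside each subunit gene of the cytosolic enzyme.

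The spread between libraries of a group was itself patterned in the cytosolic set. The lists of ATF4 targets used here were chosen with earlier results of these data known, and the pattern was not tested. Of the 11 cytosolic genes listed as known ATF4 targets, 11 were higher in parental replicate 1 than in parental replicate 3, by 1.13 to 2.24 times with a median of 1.67, and within the TRCs replicate 3 exceeded replicate 1 in 11 of 11, by up to 1.53 times. Of the 10 other cytosolic members, 4 were higher in parental replicate 1, with a median ratio of 0.923, led by *Lars1* at 1.90, and 8 were higher in TRC replicate 3, by up to 1.68 times. For the mitochondrial members the median ratio was 1.04, and over all genes tested 0.997. Genes listed as ATF4 targets that are not synthetases had the same tilt: 25 of 26 were higher in parental replicate 1, with a median ratio of 2.34. Summed, they came to 6399 and 3943 CPM in the parental libraries (replicate 1 first) and to 2938 and 3186 CPM in the TRC libraries. The part of this difference between the parental libraries in the calls above was not tested; the median log2 fold change of the cytosolic members was −0.28 without parental replicate 1 and −0.72 without parental replicate 3.

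**Figure D4:**
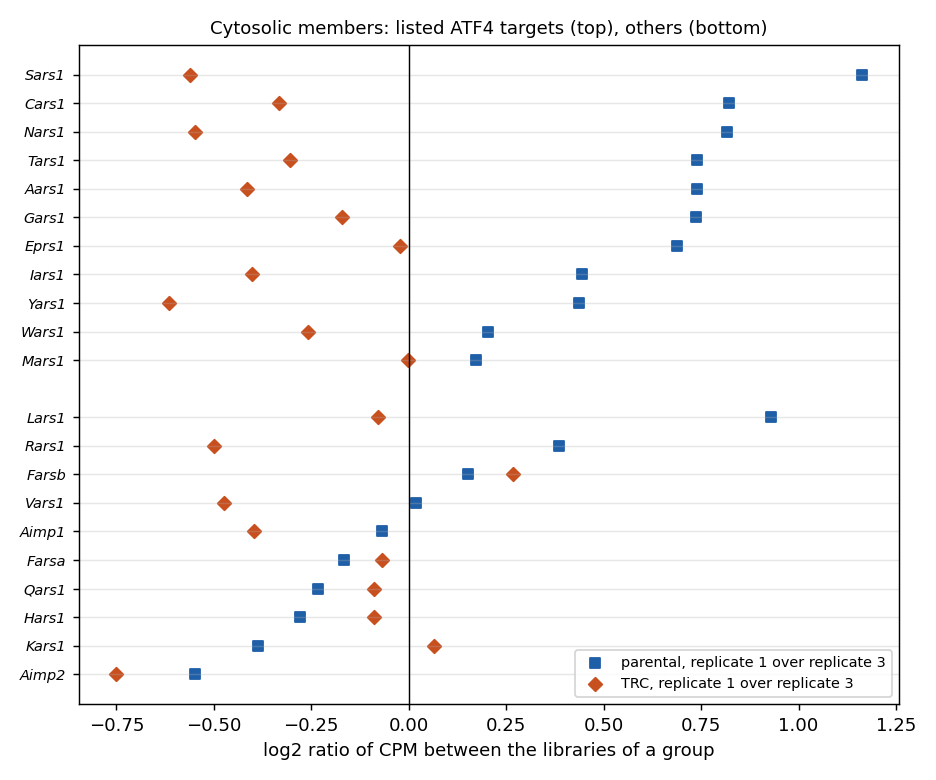
Log2 ratio of replicate 1 over replicate 3 for each cytosolic member, within the parental group (blue squares) and within the TRCs (orange diamonds), with the 11 listed ATF4 targets above and the 10 other members below. All 11 squares of the upper group lie to the right of 0, and 4 of 10 in the lower group.

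The promoters of these genes are shown because the listed ATF4 targets moved together between libraries. ATF4 is known to bind C/EBP-ATF response elements with a partner of the C/EBP family, and the letters searched for it here were TGATGNAA on both strands. RefSeq windows of 250 bases before to 50 bases after the gene start (GRCm38.p6) were matched for 14 cytosolic and 14 mitochondrial members, and not for *Cars1*, *Hars1*, *Lars1*, *Nars1*, *Rars1*, *Vars1*, *Wars1*, *Hars2* and *Pars2*. The letters were present in 5 of the 14 cytosolic members with a window (35.7%) and in 0 of the 14 mitochondrial ones. Each member was counted once, although *Aimp1* and *Aars2* have 2 windows. Of all 32851 windows, 3.97% held the letters. The 5 genes are *Aars1*, *Gars1*, *Iars1*, *Tars1* and *Yars1*, all of them on the list of known targets, and their ratio of parental replicate 1 to replicate 3 was between 1.35 and 1.67. In the 9 cytosolic members whose windows lack the letters the median ratio was 0.954, with *Sars1* at 2.24 and *Eprs1* at 1.61 among them. In the sequences, written 5′ to 3′ on the strand of the gene, capitals mark these letters and the E-box CACGTG, which MYC-family factors bind. The window of *Qars1*, the cytosolic gene that was not lower, is given as 1 of the 9 without the letters. None of the 5 genes with the letters was called in the exact test, while *Eprs1*, which lacks them, was called lower. The median log2 fold change was −0.54 in the 5 and −0.25 in the 9. A relation of the letters to the change in TRCs was not tested.
Aars1, chr8:111033592-111033891, plus strand: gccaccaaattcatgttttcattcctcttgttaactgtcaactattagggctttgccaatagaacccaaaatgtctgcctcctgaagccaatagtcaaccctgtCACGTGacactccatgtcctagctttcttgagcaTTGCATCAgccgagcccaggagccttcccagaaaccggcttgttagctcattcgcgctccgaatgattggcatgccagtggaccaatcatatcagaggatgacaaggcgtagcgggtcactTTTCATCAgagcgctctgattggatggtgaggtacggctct
Gars1, chr6:55037751-55038050, plus strand: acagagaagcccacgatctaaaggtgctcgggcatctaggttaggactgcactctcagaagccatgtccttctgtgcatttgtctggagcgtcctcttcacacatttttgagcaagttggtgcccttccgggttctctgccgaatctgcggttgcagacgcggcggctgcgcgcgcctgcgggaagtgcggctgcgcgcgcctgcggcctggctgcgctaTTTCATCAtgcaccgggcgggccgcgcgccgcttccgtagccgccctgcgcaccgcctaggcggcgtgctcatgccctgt
Iars1, chr13:49681880-49682179, plus strand: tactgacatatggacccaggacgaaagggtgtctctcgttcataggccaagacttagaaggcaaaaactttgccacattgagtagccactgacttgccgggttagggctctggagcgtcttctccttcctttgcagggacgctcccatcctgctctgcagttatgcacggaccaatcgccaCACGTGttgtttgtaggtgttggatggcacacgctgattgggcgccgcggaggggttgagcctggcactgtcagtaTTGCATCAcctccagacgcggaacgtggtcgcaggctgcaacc
Tars1, chr15:11399609-11399908, minus strand: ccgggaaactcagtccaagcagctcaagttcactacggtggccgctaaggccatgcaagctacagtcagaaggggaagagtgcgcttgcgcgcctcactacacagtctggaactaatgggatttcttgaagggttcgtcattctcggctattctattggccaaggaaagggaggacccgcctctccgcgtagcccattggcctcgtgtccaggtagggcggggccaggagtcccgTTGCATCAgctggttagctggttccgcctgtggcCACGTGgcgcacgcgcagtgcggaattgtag
Yars1, chr4:129189653-129189952, plus strand: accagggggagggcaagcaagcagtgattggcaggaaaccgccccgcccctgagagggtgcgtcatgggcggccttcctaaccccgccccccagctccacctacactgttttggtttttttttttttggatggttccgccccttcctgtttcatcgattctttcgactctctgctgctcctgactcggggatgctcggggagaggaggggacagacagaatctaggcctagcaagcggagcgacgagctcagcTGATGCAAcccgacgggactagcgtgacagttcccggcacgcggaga
Qars1, chr9:108507755-108508054, plus strand: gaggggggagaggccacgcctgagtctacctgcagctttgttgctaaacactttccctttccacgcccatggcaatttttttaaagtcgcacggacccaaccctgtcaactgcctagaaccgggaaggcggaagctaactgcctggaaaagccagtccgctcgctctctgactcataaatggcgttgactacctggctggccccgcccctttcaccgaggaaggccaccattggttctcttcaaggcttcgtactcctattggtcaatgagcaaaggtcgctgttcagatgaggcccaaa

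Positions are counted from 1 at the start that RefSeq gives the gene, and are negative before it. The response-element letters start at −112 and 10 in *Aars1*, at −30 in *Gars1*, at 8 in *Iars1*, at −15 in *Tars1* and at 4 in *Yars1*. The annotation used for the levels starts *Aars1* at 111033144, *Qars1* at 108507706 and *Yars1* at 129189760. By that annotation the windows of *Aars1* and *Qars1* lie wholly inside their genes. The other windows shown lie partly inside theirs. The copies at −112 in *Aars1*, in *Iars1*, in *Tars1* and in *Yars1* share the core TTGCATCA on 1 of the strands. *Aars1*, *Iars1* and *Tars1* hold an E-box as well, and the window of *Qars1* holds neither motif. A match of letters is a description and not a measured site.

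Other genes of tRNA supply gave a mixed picture, with counts from the same fit to be read against the 7.05% of all genes that were downregulated and the 8.81% that were upregulated. Among 23 genes of tRNA maturation and export tested, 8 were downregulated and 0 upregulated, the median being −0.55, and 0 genes were higher at an unadjusted p under 0.05. The smallest FDR values were those of *Pop1* (a subunit of RNase P, which trims the 5′ end of tRNA precursors; log2 fold change −1.16, SE 0.29), *Trmt10c* (a subunit of the mitochondrial RNase P; −0.95, SE 0.23) and *Trnt1* (which adds the CCA end that synthetases charge; −0.76, SE 0.19). Among 12 accessory and editing genes tested, 1 was downregulated (8.33%, near the share of all genes), *Eef1e1*, a further scaffold of the multi-synthetase complex, with 66.4 and 68.9 CPM in the parental and 36.1 and 47.7 CPM in the TRC libraries (log2 fold change −0.69, SE 0.23, FDR = 0.0267). Among 11 elongation factors, 2 were downregulated, the mitochondrial *Gfm1* (−0.73) and *Eif5a* (−0.72), with a median of −0.30. Among 26 ATF4 targets other than synthetases, 9 were downregulated and 1, *Vldlr*, upregulated, with a median of −0.69. Both TRC libraries lay below both parental ones in only 8 of these 26, near the 30.4% of all genes tested. In 1 of the 26 both lay above. The smallest FDR values among those downregulated were those of *Slc7a11*, the cystine transporter (log2 fold change −3.54, SE 0.87), and of *Phgdh* (−0.997, SE 0.19) and *Shmt2* (−1.17, SE 0.27), enzymes of serine synthesis and of mitochondrial serine use. *Vldlr*, a lipoprotein receptor, had 16.8 and 1.76 CPM in the parental and 29.0 and 43.5 CPM in the TRC libraries (log2 fold change 1.97, SE 1.34, FDR = 0.0311), with the parental libraries far apart.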

How the data were processed

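RNA-seq counts were available for 2 parental and 2 TRC libraries. The deposited files hold unnormalized counts for each Ensembl gene. The authors made them by trimming reads of stranded libraries with Trimmomatic 0.35, aligning them to GRCm38 with TopHat2 2.1.0, Bowtie2 2.2.6 and SAMtools 1.3, and counting with HTSeq, whose mode and strand setting are not given in the sources used here. Rows that name no gene were removed first and took 20.2% to 29.0% of each file's total.

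Genes with at least 1 CPM in at least 2 libraries were kept (11483). After TMM scaling, groups were compared with the exact test of edgeR 4.0.16 (R 4.3.3, tagwise dispersions, prior count 0.125) and Benjamini-Hochberg adjustment over all genes kept (FDR). SE came from DESeq2 1.42.0. The fit was checked on simulated counts with known fold changes. The levels per kilobase use the longest principal transcript in GENCODE M21, in which all 37 symbols were found, 17 of them without the final 1. Members, lists and alternatives were chosen with earlier results of these data known. Every member is named; of other lists, up to 3 called genes with the smallest FDR in each direction. The alternatives were stricter and absent filters, DESeq2 size factors, library size alone, a prior count of 2, the quasi-likelihood test with and without replicate block, DESeq2's Wald test, an added 1.5-fold change, and each library left out. With 2 libraries per group, an exact permutation test of a single gene cannot reach a p under 0.05.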

Additional observations from a re-analysis of the deposited data

How the results depend on the processing

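Every member had at least 145 counts in each library. The number of cytosolic members called lower was 3 with no filter on low counts (19571 genes tested), 1 in the quasi-likelihood test and 1 when that test had a replicate block. Leaving out single libraries gave 0 to 8. For the mitochondrial members it was 0 in the quasi-likelihood test, 0 with the block, 2 in DESeq2's Wald test, and 0 to 3 with each library left out. Over all genes tested, 487 were called lower and 567 higher in the quasi-likelihood test, 308 lower and 477 higher with the replicate block, and 269 to 854 lower and 500 to 1078 higher with each library left out. The cause of these shifts was not tested. The samples share only a number: across genes, a library's deviation from its group mean had r = 0.027 with that of the library of the same number in the other group. The median log2 fold change stayed below 0 in all alternatives run, from −0.72 to −0.28 for the cytosolic and from −0.31 to −0.20 for the mitochondrial members.

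The sign turned in 8 members. With single libraries left out, their log2 fold changes ran from −0.75 to 0.067 for *Cars1*, −0.70 to 0.46 for *Sars1*, −0.32 to 0.072 for *Aimp1*, −0.26 to 0.0035 for *Iars2*, −0.047 to 0.24 for *Nars2*, −0.23 to 0.23 for *Pars2*, −0.20 to 0.12 for *Vars2* and −0.22 to 0.21 for *Wars2*. The turns came without parental replicate 1 for *Cars1*, *Sars1*, *Pars2* and *Vars2*, without parental replicate 3 for *Iars2* and *Nars2*, without TRC replicate 1 for *Aimp1* and *Sars1* (0.0012), and without TRC replicate 3 for *Pars2* (0.0095) and *Wars2*. *Wars2* was also at −0.0060 with no filter and at −0.011 with library size only. Of 444 values of members under alternatives, 398 kept their direction and side of the threshold, 26 were no longer called, 8 were newly called and 12 turned sign. Only the 6 called members could lose a call, so all 26 losses fell on them. The other 31 members had no call to lose.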

Other observations

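The E-box letters CACGTG were present in 4 of the 14 cytosolic members with a window (*Aars1*, *Farsb*, *Iars1* and *Tars1*, 28.6%). They were present in 1 of the 14 mitochondrial members with a window (*Ears2*, 7.14%) and in 7.15% of all windows. The motif of NRF1, a regulator of nuclear genes for mitochondrial proteins, was present in 3 of these 14 cytosolic members (*Farsb*, *Kars1* and *Tars1*). It was present in 2 of these 14 mitochondrial members (*Iars2* and *Mars2*) and in 4.60% of all windows. Both motifs were searched on both strands.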
